A study of Drosophila melanogaster with 4 samples.

Results

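RNA levels in ovaries of snf148 mutant and wild-type Drosophila melanogaster females were compared for the X-linked genes that the authors' tables name only by a CG number, the serial label given to a predicted fly gene before anyone names it. The members are all rows of the authors' tables that lie on chromosome X and whose name is CG followed by digits alone, which gave 120 of the 1283 listed genes and 120 of the 231 listed genes on the X. A further 1 row of this form was left out by the rule. The other sets used for comparison are the 110 listed X-linked genes with other names, the 498 listed CG-numbered genes of the autosomes and the 550 other listed genes of the autosomes.

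Both genotypes carried the yellow and white mutations (y w), so these alleles were shared by control and mutant. The mutant chromosome carried snf148 and vermilion (v) in addition, and the labels do not give the mutant's zygosity. Mutant females were 3-day adults and wild-type females were virgins of 0 to 24 hours, so genotype, the v allele, age and possibly mating status differed together. Each genotype had 2 libraries of total ovarian RNA. The tables give the mean level of each genotype and no value per library, so no SD stands beside a level and the depth is unknown. Nothing in the labels says whether the libraries of a genotype came from separate groups of flies, so the authors' P values measure the spread between these libraries, which may be technical.

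The product of snf, sans fille, binds the U1 and U2 RNAs of the spliceosome and is needed in female germ cells for productive splicing of Sex-lethal RNA. Where this function is impaired in female germ cells, they do not differentiate and form tumours, which can turn on genes of the male germline. The X is present in 2 copies in females and 1 in males, and in male somatic cells its transcription is raised by the dosage compensation complex. Many genes that still bear only a CG number are expressed weakly or mainly in a single tissue, the testis among them.

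Levels are the authors' mean FPKM, which is a fragment count divided by transcript length and by the size of the library, and a pair of values gives snf148 first and wild type after it. Ratios are recomputed from these means. The tables list only genes that passed the authors' adjusted P value of 0.05, so every member differs by the authors' test, and a gene outside the tables was not analysed here. In the authors' deposited tables the largest adjusted P value of a member is 0.0497, and 45 of the 120 members share the smallest P value of the whole comparison, 5e-05, which is 37.5% beside 36.3% of all listed genes. Weakly expressed genes hold this smallest value too, such as CG17003 at 0.241 against 0 FPKM, so it does not mark the best measured members.

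Of the 120 members, 87 were higher in snf148 ovaries and 33 were lower, so 72.5% were higher, beside 51.8% higher and 48.2% lower over all 1283 listed genes. The other listed X-linked genes were higher in 64 of 110 cases, or 58.2%, and the listed autosomal CG-numbered genes in 247 of 498 cases, or 49.6%. The most extreme members were CG34434, which was 262-fold higher in the mutant, and CG9686, which was 58.5-fold lower. The most abundant was CG43134, whose coding sequence has 82 residues, at 2276 against 190.5 FPKM. Whether the share of higher genes differs between these sets was not tested, since genes are not replicates. In total ovarian RNA, more cells of a type and more RNA per cell cannot be told apart.

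The name "uncharacterised protein gene" does not hold for every member. All 120 matched a gene of the RefSeq annotation, release 6, and 97 still bear a CG number there, 2 of them a different number from the tables. Another 23 have since been given a symbol of another kind. CG32652 and CG43132 are now annotated as long noncoding RNAs, so 118 members have a coding sequence. The 97 that kept a CG number were 73 higher and 24 lower, and the 23 renamed were 14 higher and 9 lower.

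**Figure D1:**
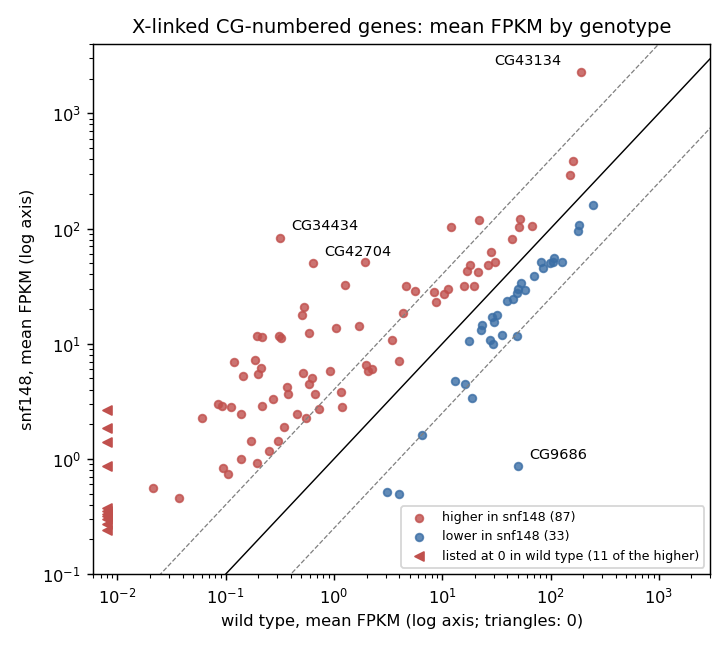
Mean FPKM of each of the 120 X-linked CG-numbered genes in wild type (horizontal, log axis) and snf148 (vertical, log axis), with the line of equality and dashed lines at 4-fold. The 87 higher genes (red) spread to the left, many below 1 FPKM in wild type and 11 listed at 0 (triangles), while the 33 lower genes (blue) lie mostly above 10 FPKM and close to equality.

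The lower members were the more abundant, as lower genes were among all listed genes. The higher members had a median of 6.08 FPKM in snf148, with a range of 0.241 to 2276, and a median of 0.530 FPKM in wild type, with a range of 0 to 190.5. The lower members had medians of 17.7 FPKM in snf148 and 45.2 FPKM in wild type. Below 1 FPKM in wild type lay 52 of the 87 higher members, or 59.8%, and 38 of these reached at least 1 FPKM in snf148. Over all listed genes it was 282 of 665 higher genes, or 42.4%, and 207 of these reached at least 1 FPKM. Of the lower members, 25 of 33 were at 10 FPKM or more in both genotypes, or 75.8% beside 72.8% of all listed lower genes. Over all listed genes the median level in the genotype with the higher value was 63.5 FPKM for lower genes and 14.1 FPKM for higher genes, and over the members it was 45.2 and 6.08 FPKM.

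The median log2 ratio was 2.80 over the 76 higher members above 0 in both genotypes and -0.94 over the 33 lower members. The same medians over all listed genes were 2.26 and -1.06. At least 4-fold higher were 61 members, or 70.1% of the higher ones, and at least 4-fold lower were 6, or 18.2% of the lower ones; over all listed genes the shares of higher and lower genes at that fold were 58.2% and 20.7%. Of all 1283 listed genes, 30.2% were higher by at least 4-fold and 9.98% lower by at least 4-fold. At low levels only large ratios can pass a test, so the medians of higher and lower genes are not comparable as sizes of effect. At least 16-fold higher were 33 members, or 37.9% of the higher ones. Of these, 11 were listed at 0 in wild type and count by convention, and 22 had a ratio. The share was 20.5% over all listed higher genes, 22.3% of the higher autosomal CG-numbered genes and 15.6% of the other higher X-linked genes.

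Part of this profile was shared with CG-numbered genes of the autosomes. Of those, 71.3% of the higher genes passed 4-fold, close to the 70.1% of the X-linked members, and 54.3% stood below 1 FPKM in wild type, beside 59.8% of the higher members. The named X-linked genes had lower shares, with 46.9% past 4-fold and 34.4% below 1 FPKM in wild type. The kind of name thus went with the size of the ratio and the level in wild type on the X and on the autosomes, while the share of higher genes was largest in the X-linked CG-numbered set.

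**Figure D2:**
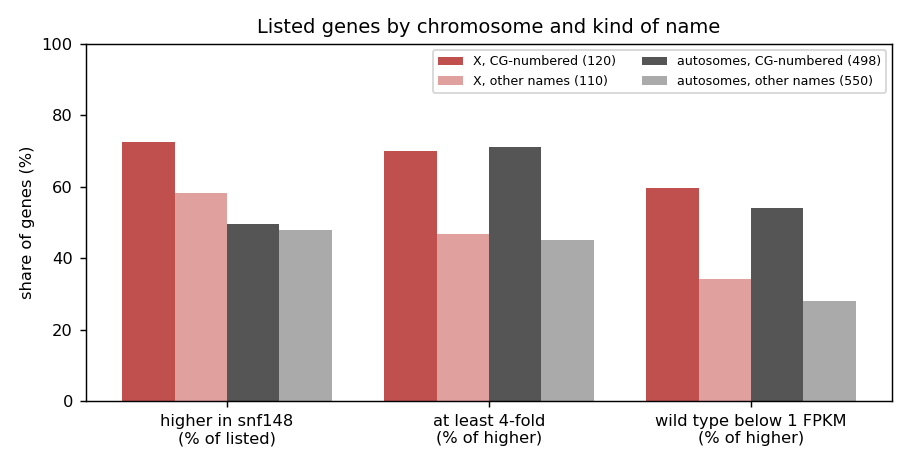
Share of genes (percent, from 0) in the 4 sets of listed genes for 3 measures: higher in snf148 among all listed, at least 4-fold among the higher genes, and below 1 FPKM in wild type among the higher genes. The X-linked CG-numbered genes have the tallest first bar, 72.5%, and resemble the autosomal CG-numbered genes in the second, 70.1% against 71.3%.

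Set against the genome, the X had 1025 protein-coding genes with a CG number as RefSeq symbol, and 73 of them, or 7.12%, were listed as higher and 24, or 2.34%, as lower. On the 4 large autosomal arms, between 3.23% (3L) and 4.15% (2R) of such genes were listed as higher and between 2.99% (3L) and 3.93% (3R) as lower. For protein-coding genes with other symbols the share listed as higher was 5.97% on the X and 4.29% to 5.55% on these arms. These shares count genes of any level in the ovary, also those that no library could detect, and were not tested. About 11.0% of all genes that entered the authors' test were listed. That share is inferred: if the authors adjusted by the Benjamini-Hochberg method, their P values and ranks imply 11693 to 11737 genes tested.

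Among the higher members with the largest ratios, CG34434 stood at 83.4 against 0.318 FPKM. Its locus runs from 5508587 to 5510403 on the X in the tables' build, which is not named. CG42704 stood at 50.0 against 0.640 FPKM, a 78.1-fold ratio, at 7306701 to 7307329. CG15599 was 60.0-fold higher, at 11.6 against 0.193 FPKM. All of these were below 1 FPKM in wild type and above 10 FPKM in the mutant.

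CG15056 stood at 6.89 against 0.119 FPKM and CG6999 at 11.3 against 0.217 FPKM. CG15323, now named karr, stood at 20.8 against 0.530 FPKM and encodes 97 residues. CG1394 reached 7.25 against 0.186 FPKM, and CG1387 reached 2.28 against 0.0600 FPKM. These 8 genes have the largest finite ratios among members of at least 1 FPKM in the higher genotype, and none of them reached 1 FPKM in wild type.

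The higher members also include genes with strong expression in both genotypes. CG43134 at 4141346 to 4141818 was 12.0-fold higher, and no other member came near its 2276 FPKM. CG7267, now CG44325, stood at 386 against 160 FPKM. CG6891, which has Cotl1, a coactosin-like protein that binds actin filaments in mammals, among its RefSeq synonyms, stood at 293 against 150 FPKM. Both of the latter were less than 3-fold higher.

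CG4068, now CG44774, stood at 122 against 52.2 FPKM and CG15347 at 119 against 21.8 FPKM. CG1637 was higher by 1.57-fold, at 106 against 67.5 FPKM, a log2 ratio of 0.65. CG7267 overlaps CG10970 on the same strand in the Ensembl annotation, CG4068 overlaps a hairpin RNA gene on its strand, and CG6891 and CG1637 overlap genes on the opposite strand. How the authors assigned reads in overlaps is not given in the sources used here, so the values of overlapping genes are uncertain.

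A group of 11 members was listed at 0 in wild type and none at 0 in snf148. Their levels in the mutant were low, from 0.241 to 2.68 FPKM with a median of 0.356, and 8 of them were below 1 FPKM. The 3 above it were CG42578 at 2.68, CG42577 at 1.87 and CG42579 at 1.39 FPKM. These 3 have similar short coding sequences of 92, 92 and 99 residues and no intron, and they lie on the same stretch of the X, with starts at 20317398, 20130343 and 20398692. Their sequences were not compared here, so reads shared between them could not be checked. A gene at 0 in wild type has no ratio, and with unknown depth no limit can be put on its level there.

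The other 8 were CG15927 at 0.876, CG33669 at 0.374, CG15471 at 0.356, CG2652 at 0.331, CG11816 at 0.320, CG6873 at 0.302, CG5334 at 0.273 and CG17003, now lky, at 0.241 FPKM. CG6873 has adf, for actin-depolymerising factor, among its RefSeq synonyms. Genes listed at 0 in wild type made up 12.6% of the higher members and 5.86% of all listed higher genes. The share was 8.91% of the higher autosomal CG-numbered genes and 4.69% of the other higher X-linked genes. The 11 encode 92 to 362 residues, and 8 of the 11 have a single exon.

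Only 6 of the 33 lower members fell by at least 4-fold. CG9686 stood at 0.860 against 50.4 FPKM, and its locus runs from 9773902 to 9774568. It encodes 162 residues in a single exon. The next largest decrease was that of CG43133, 7.97-fold, at 0.500 against 3.99 FPKM, so CG9686 stood well apart from the other lower members.

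CG14053 stood at 0.516 against 3.06 FPKM and overlaps Mct1 on the opposite strand. CG15766, now AgmNAT, an enzyme that acetylates agmatine, stood at 3.41 against 18.7 FPKM. CG3699, which has DECR2, a peroxisomal dienoyl-CoA reductase of mammals, among its synonyms, stood at 11.6 against 48.9 FPKM. These 3 lay between 4- and 6-fold lower.

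CG43672 stood at 1.61 against 6.47 FPKM, CG3690 at 4.47 against 16.3 FPKM and CG8128 at 11.9 against 35.6 FPKM. The most abundant lower members changed less. CG9281 stood at 161 against 244 FPKM, CG17896 at 107 against 185 FPKM and CG3071 at 55.8 against 107 FPKM. CG11674 stood at 51.2 against 127 FPKM, and in the authors' deposited table its adjusted P value is 0.0493, close to the threshold.

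Members whose RefSeq symbol or synonym points to a role were grouped after their values had been seen, so the groups describe and support nothing. The 3 members tied to RNA polymerase III or to ribosome assembly were lower, with log2 ratios between -0.98 and -0.69. CG17209, now Polr3A, the largest subunit of RNA polymerase III, stood at 14.6 against 23.4 FPKM. CG8939, with dSpb1 as a synonym after the yeast ribosomal RNA methyltransferase Spb1, stood at 50.1 against 98.7 FPKM. CG7246, with UTP6 as a synonym, a component of the small subunit processome in yeast, stood at 24.5 against 45.2 FPKM. None of the 3 changed by more than 2-fold. CG8611 and CG5800, which are numbered as RNA helicases in their synonyms, stood at 23.4 against 40.0 and 33.5 against 53.7 FPKM.

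Of 7 metabolic enzymes, 3 were higher and 4 lower. Besides AgmNAT and CG3699, the lower ones were CG3011, now Shmt, serine hydroxymethyltransferase of one-carbon metabolism, at 94.6 against 179 FPKM, and CG10932, now Acat1, acetyl-CoA acetyltransferase, at 51.5 against 106 FPKM. The higher ones were CG1673, now Bcat, the branched-chain aminotransferase, at 62.5 against 28.5 FPKM, CG9360, with FOHSDR as a synonym, at 28.7 against 5.55 FPKM, and CG7349, now SdhBL. SdhBL, a paralogue of the iron-sulphur subunit of succinate dehydrogenase, stood at 3.00 against 0.0841 FPKM, a 35.6-fold ratio. The enzymes thus ran from a log2 ratio of -2.46 to 5.16 and shared no direction.

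The named genes of germ cells and meiosis were split as well. CG14814, now Gcna, a nuclear protein of germ cells, stood at 15.4 against 29.9 FPKM. CG8316, now corolla, a component of the central region of the synaptonemal complex that holds paired chromosomes together in female meiosis, stood at 30.0 against 11.3 FPKM. Both genes of centrioles and cilia were higher: CG9170, now Cep164, at 5.03 against 0.626 FPKM, and CG15730, now Mks1, of the ciliary transition zone, at 0.923 against 0.194 FPKM. In flies, cilia are made by sensory neurons and by male germ cells.

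The ubiquitin protease gene CG4165, now Usp16-45, stood at 38.9 against 69.7 FPKM, whereas CG11700, with Ubiquitin among its synonyms, stood at 14.1 against 1.71 FPKM. CG11700 belongs to a family whose coding repeats are near-identical, so its level is uncertain. Of the 4 members tied to membranes and transport, 2 were higher and 2 lower. CG11697, now Reepl1, stood at 2.80 against 0.112 FPKM and CG32702, now Cubn, the endocytic receptor cubilin, at 7.07 against 3.99 FPKM. CG42492, now OtopLa, an otopetrin-like proton channel, stood at 17.7 against 31.8 FPKM, and CG3168, with Slc22a18 among its synonyms, at 45.3 against 85.5 FPKM.

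The other renamed members carry symbols to which no role is given here. CG13366, now spdi, stood at 13.1 against 22.9 FPKM and CG12119, now SmydA-9, at 10.8 against 27.9 FPKM. CG43154, now rudhira, stood at 31.7 against 19.5 FPKM, CG43921, now hwt, at 2.84 against 1.18 FPKM and CG32506, now tbc, at 3.84 against 1.15 FPKM. The members now held to be noncoding were both over 20-fold higher, with CG43132 at 32.2 against 1.26 FPKM and CG32652 at 5.47 against 0.198 FPKM.

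Over all members, the higher ones had shorter coding sequences than the lower ones by their medians, a difference that was not tested. The longest annotated coding sequence had a median of 377 residues in the 85 higher members that have one and 602 residues in the 33 lower members. Among members at least 4-fold different the order was reversed, with 251 residues in 59 higher and 223 in 6 lower members. Under 200 residues lay 24 of the 85 higher members, or 28.2%, and 2 of the 33 lower ones, or 6.06%. All 1025 X-linked genes with a CG number as RefSeq symbol had a median of 321 residues and 26.6% under 200, so the higher members lay close to that background and the lower ones were longer. The medians of the other listed X-linked genes were 567 residues for higher and 590 for lower genes. Those of the listed autosomal CG-numbered genes were 432 and 445, and those of all listed genes 479 and 501. FPKM divides by transcript length, so a given level rests on fewer fragments in a short gene.

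A single exon in every annotated transcript was found for 20 of the 85 higher members, or 23.5%, and for 5 of the 33 lower ones, or 15.2%. The share among all X-linked genes with a CG number was 21.3%. Among the higher autosomal CG-numbered genes it was 10.7%, and among all listed higher genes 12.3%. Of the 20 higher members with a single exon, 18 stood below 1 FPKM in wild type, beside 33 of the 65 with more exons. The higher members with a single exon had a median level of 2.16 FPKM in snf148, against 10.7 FPKM for those with more exons.

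**Figure D3:**
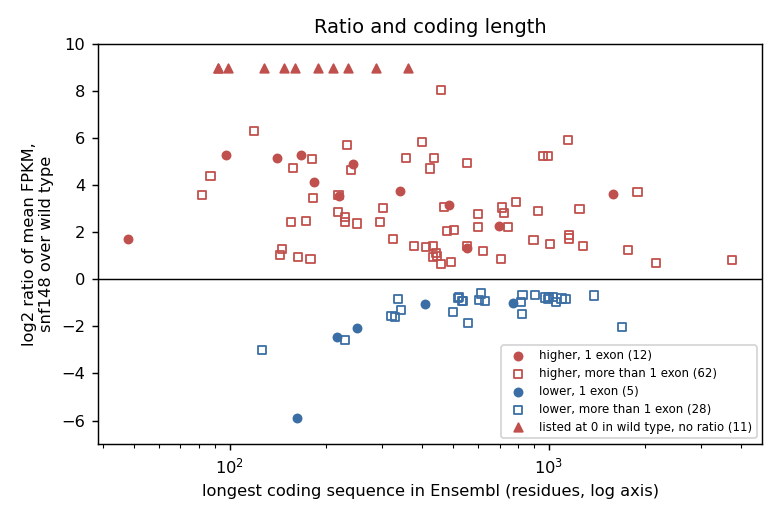
Log2 ratio of mean FPKM, snf148 over wild type, against the longest coding sequence in residues (log axis) for the 118 members with one; filled circles have 1 exon, open squares more, and triangles at the top mark the 11 members listed at 0 in wild type, which have no ratio. Lower members cluster near a log2 ratio of -1 toward longer coding sequences, and higher members with large ratios span short and long coding sequences.

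In RefSeq gene order, the X has 2197 protein-coding genes, and members ran from number 33 to number 2063, so the last 134 genes toward the centromere held none. The longest stretch between the starts of adjacent members in the tables' coordinates was 1.57 Mb, from CG2652, number 278, to CG43134, number 391. The genes were divided into 10 blocks of 219 or 220 genes. The number of members per block ran from 8 in blocks 1 and 10 to 18 in block 7. As a share of protein-coding genes this was 3.64% to 8.22%. Lower members were the majority only in block 1, at the distal end next to the telomere, with 6 lower and 2 higher, and equalled the higher ones in block 3, with 8 of each. In block 10 all 8 members were higher. In blocks 1 to 5 together 38 of 58 members were higher, or 65.5%, and in blocks 6 to 10 it was 49 of 62, or 79.0%; the difference was not tested. The other listed X-linked genes were 5 higher and 6 lower in block 1 and 8 higher and 3 lower in block 10.

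**Figure D4:**
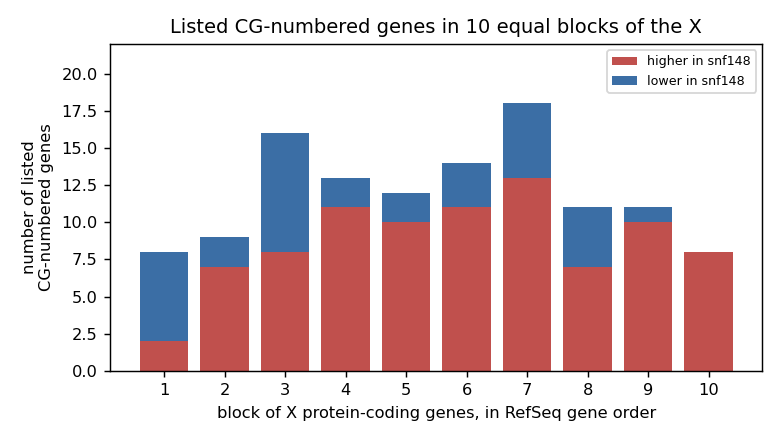
Number of listed CG-numbered genes in each of 10 equal blocks of the X protein-coding genes, in RefSeq order, with higher genes in red and lower genes in blue on top. Block 1 holds 6 lower and 2 higher genes, block 7 has the tallest bar with 18 genes, and block 10 has 8 higher and 0 lower.

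**Figure D5:**
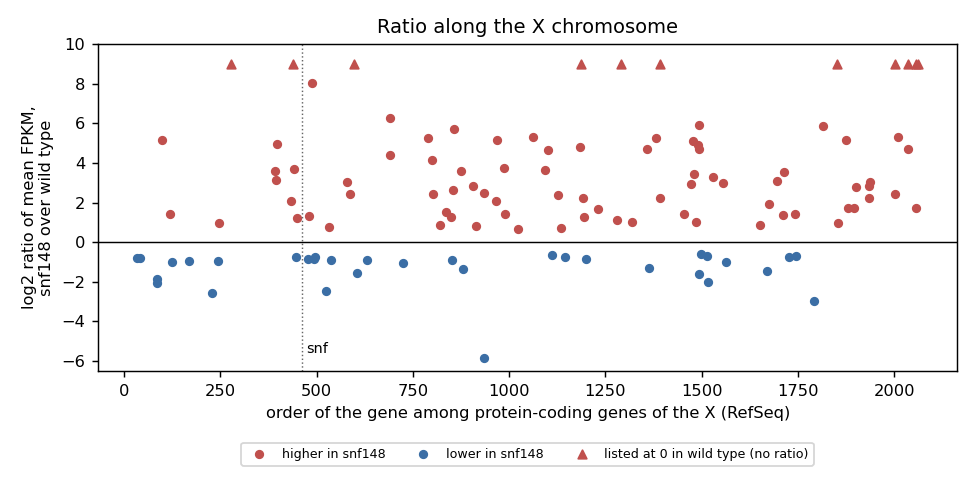
Log2 ratio of mean FPKM, snf148 over wild type, of each member against its order among the 2197 protein-coding genes of the X; triangles at the top mark the 11 members listed at 0 in wild type, and the dotted line marks snf. Higher and lower members lie on both sides of snf, number 463, and the highest point, at 8.03, is CG34434, number 488.

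The gene snf itself, number 463 in this order, is not among the genes analysed here. With the row left out by the rule set aside, the listed genes next to it are CG4068, 14 genes before, and TrxT, the gene directly after. The 3 nearest members before it were CG4068, CG6927 at 30.0 against 50.0 FPKM, and CG2861 at 13.7 against 1.05 FPKM. The 3 nearest after it were Usp16-45, CG15784 at 42.9 against 16.9 FPKM, and CG34434. Both sides thus held higher and lower members. The mutant X may carry other differences from the control X around snf and v, which cannot be told apart from the effect of snf148 in this design.

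Pairs of members close to each other were counted by direction. Of 21 pairs whose starts lay within 10 kb, 12 were both higher, 2 were both lower and 7 were opposite, so 66.7% shared direction. Within 5 kb 9 of 10 pairs did, and within 20 kb 20 of 35, or 57.1%. Since 72.5% of all members were higher, pairs of higher members are common under any arrangement, and no test was made.

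The closest pair was CG42704 and CG42705, which start 1214 bp apart on the same strand; CG42705 stood at 12.4 against 0.586 FPKM, so both were more than 20-fold higher. CG32706 and CG6999 start 1238 bp apart on the same strand and encode 230 and 233 residues. CG32706 stood at 5.80 against 0.927 FPKM, so it was 6.26-fold higher where CG6999 was 52.2-fold higher. CG32713, at 2.46 against 0.139 FPKM, starts 1565 bp from CG15347.

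CG14204, CG14219 and CG14205 form a group of 3 adjacent members that start within 8995 bp and encode 743, 724 and 713 residues. They stood at 1.18 against 0.252, 0.741 against 0.105 and 1.42 against 0.171 FPKM, which are ratios of 4.69-, 7.06- and 8.30-fold. All 3 were weakly expressed in both genotypes and higher in snf148. CG14219 lies on the opposite strand to the other two, and 290 bp separate it from CG14204.

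CG15599 and the noncoding CG43132 lie on opposite strands with 632 bp between their loci, and both were more than 25-fold higher. CG2909, at 18.7 against 4.38 FPKM, and CG15306, at 5.22 against 0.145 FPKM, converge from opposite strands with 310 bp between their loci. CG2909 overlaps Gip on the opposite strand, and in RefSeq order 1 other gene lies between CG2909 and CG15306. CG2887, at 2.89 against 0.217 FPKM, and CG32687, at 47.8 against 18.1 FPKM, start 4768 bp apart. In each of these pairs the weaker gene in wild type had the larger ratio.

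Further pairs of higher members were CG42299, at 5.63 against 0.514 FPKM, with CG8097, at 31.9 against 16.0 FPKM, then CG5162, at 26.8 against 10.3 FPKM, with CG34327, at 4.25 against 0.369 FPKM, and CG42578 with tbc. The pairs of lower members were CG3699 with CG3690, on the same strand, and CG8128 with CG9281.

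Some neighbours went opposite ways. CG9686, the member with the largest decrease, starts 2114 bp before CG9689 on the same strand, which was higher at 1.91 against 0.345 FPKM. CG7267 and CG7246 have 327 bp between their loci on the same strand, and the first was higher and the second lower. CG7246 also differed in direction from CG32706 and CG6999. The other opposite pairs were Usp16-45 with CG15784, CG43132 with CG8128, and corolla with CG5800.

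Cell type markers in the same tables moved as well. Of 20 testis germline markers, 6 were listed and all 6 were higher, with a summed level of 179.9 FPKM in snf148 and 2.27 FPKM in wild type. Of 9 ovarian germline markers, 4 were listed as lower and 1 as higher, with sums of 612 and 1781 FPKM, and of 12 follicle cell markers 6 were higher and 3 lower, with sums of 2988 and 1605 FPKM. The 2 listed of 3 spermatheca and oviduct markers were higher, at a sum of 54.3 against 2.18 FPKM, while of 14 fat body and immune markers 1 was higher and 6 were lower, at a sum of 397 against 2505 FPKM. Of 7 muscle markers 2 were lower, at 3.93 against 29.0 FPKM, and of 5 gut markers 1 was lower, at 0.773 against 4.25 FPKM. No listed marker stood at 0 in either genotype. The part of these cell types in the members' differences was not tested.

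In the Ensembl annotation 28 members overlap another gene, 23 of them a gene on the opposite strand. Of these 28, 16 were higher and 12 lower, or 57.1% higher, and of the 92 members with no overlap 71 were higher and 21 lower, or 77.2%. Overlaps were not counted for the other listed genes, so no such share over all listed genes stands beside these. The difference was not tested. Overlaps on the opposite strand include those of Shmt, Polr3A, CG3071, CG9281 and CG11674 among the lower members named above.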

How the data were processed

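Ovarian RNA was sequenced from 2 libraries of each of 2 genotypes. Per the labels' protocols, column-purified and DNase-treated total RNA was made into stranded libraries and read as paired ends. TopHat2 2.0.9 and Cuffdiff were used, per the submitters' processing notes. The sources used here name no genome build, annotation or read-counting options. Per the file headers, the authors deposited the mean FPKM of each genotype, a log2 fold change (wild type relative to mutant), and P values with adjusted P values, for listed genes only. Titles of the tables refer to wild type over mutant, so direction was read from the genotype means.

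From these, log2 ratios of snf148 over wild type, counts and medians were computed with Python 3.11.15 and pandas 2.3.3, with no pseudocount; genes at 0 have no ratio, are left out of medians of log2 ratios and count as past any fold. No per-library value was at hand, so the planned limma fit could not be run. No list was tested. Starts were moved to count from 1: so counted, 41 members have exactly their reference span, and 2 would without the shift. Names, gene order, exons and coding lengths come from RefSeq release 6 and Ensembl release 115, whose build differs from the tables', so no reference coordinates are given. Counting was tested on simulated data.

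Members and lists were chosen with earlier results of these data known. Named members were the 8 highest and 8 lowest ratios among those of at least 1 FPKM, those at 0, the 6 highest levels per direction, pairs within 10 kb, renamed genes and the 3 nearest snf on each side. Others, and the role groups, were chosen after their values were seen.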

Additional observations from a re-analysis of the deposited data

How the results depend on the processing

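No paired analysis was possible because the tables hold means of each genotype, and for the same reason no library could be left out. Of the alternatives to the counts and medians of the members, 25 stayed near the main value and 10 moved. The direction of a member was set by its genotype means, so no alternative could change it. With the adjusted P value limited to 0.01, 49 members were higher and 19 lower, and 3 of 5 pairs within 10 kb shared direction; fewer genes are counted there. With a pseudocount of 1 FPKM the median log2 ratio of higher members was 1.34, and 24 members were higher and 2 lower by at least 4-fold, since a pseudocount shrinks ratios of weak genes by construction. At least 4-fold different members had a median of 3.64 FPKM where higher and 12.6 FPKM where lower, in the genotype with the higher value. Their median coding length was 251 residues where higher and 223 residues in the 6 lower ones, so the order of the main medians was reversed. The cause was not tested. Within 5 kb 9 pairs shared direction, since fewer pairs are counted. The unknown depth limits all values below 1 FPKM. The planned shares of promoter motifs were not run.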
